A study of Mus musculus with 12 samples.

Results

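The genes that encode the transforming growth factor beta (TGF-beta) ligands, their receptors and the latent binding proteins were followed across mouse gastrocnemius muscles in which the facioscapulohumeral muscular dystrophy (FSHD) gene DUX4 had been switched on to different degrees. The set was named by symbol and holds 9 of the 37748 genes of the count table: 3 ligands (Tgfb1, Tgfb2 and Tgfb3), 2 receptors (Tgfbr1 and Tgfbr2) and 4 latent TGF-beta binding proteins (Ltbp1, Ltbp2, Ltbp3 and Ltbp4). The rule names genes and uses no threshold on measured values. All 9 were among the 16679 genes tested, but Tgfb1 and Ltbp2 reached 10 counts in only 2 of 3 control mice and 2 of 3 FLExD/+ mice, against 3 of 3 in each of the other groups.

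Polyadenylated RNA was sequenced from 12 mice, 1 library per mouse and 3 mice per group. Controls (ACTA1-MCM/+) carried a MerCreMer transgene driven in skeletal muscle by the ACTA1 promoter, and FLExD/+ mice carried only the DUX4 transgene, which sits inverted at the Rosa26 locus until Cre turns it. By the labels, neither of these groups was given tamoxifen. The moderate and severe groups carried both transgenes (ACTA1-MCM; FLExD). The moderate group had 1 intraperitoneal injection of tamoxifen at 5 mg/kg, and the severe group had injections of 10 mg/kg on 2 successive days. Muscles were taken at 13 weeks of age, on day 9 of the model. DUX4 expression in this system is mosaic, so a library mixes fibres that recombined with fibres that did not. Because no control or FLExD/+ mouse had tamoxifen, an effect of tamoxifen itself cannot be told apart from DUX4 induction. The study also reports low, mosaic recombination and DUX4 protein in bi-transgenic muscle without tamoxifen. A difference between a model and controls can thus include effects of this earlier leak, which cannot be told apart from the response to the dose. The sample labels use the word mild for the single low dose that the study calls moderate, and for FLExD/+ mice. The bi-transgenic mice without tamoxifen, which the study calls mild, were not analysed here.

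Libraries held 23796902 to 29136403 counts per mouse. Muscle fibre markers were present in every library, and none of the 8 listed was at 0. Their summed level, in CPM (counts relative to library sizes that were adjusted by the trimmed mean of M values, TMM), was 136592 to 186476 in controls, 127142 to 160924 in FLExD/+ mice, 61746 to 74069 in moderate mice and 9410 to 16672 in severe mice. The composition of the libraries thus differed so much between groups that the scaling matters. On library size alone, the median gene of all those tested was 0.65 higher (log2) in moderate than in control mice, 1.39 higher in severe than in control mice and 0.72 higher in severe than in moderate mice, whereas with the TMM factors these medians were 0.04, 0.08 and 0.02. The fold changes below use the TMM factors and are thus relative to the typical gene. "Rose" and "fell" mean that a gene passed the edgeR quasi-likelihood test at a Benjamini-Hochberg adjusted p under 0.05 over all genes, with a log2 fold change of 0.5 or more in either direction. In whole muscle, fewer cells of a type and less RNA per cell cannot be told apart.

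TGF-beta is secreted as a latent complex in which the ligand stays wrapped in its own propeptide. Latent binding proteins attach this complex to the fibrillin-rich matrix, and integrins, proteases or thrombospondin can free the ligand. Free ligand binds the type II receptor TGFBR2, which recruits and phosphorylates the type I receptor TGFBR1, and SMAD2 and SMAD3 then carry the signal to the nucleus with SMAD4. In skeletal muscle the pathway is known for restraining myoblast differentiation and for driving matrix deposition and fibrosis.

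Promoters are shown for 3 genes, because Tgfb1 and Ltbp2 rose most among the 9 genes in severe muscle and Tgfb2 fell most. Each run ends at the last base before the 5' end of the gene in GENCODE M21 and reads towards the gene. Capitals mark the SMAD box CAGAC, the binding core of SMAD3 and SMAD4, and the GC box GGGCGG, bound by Sp-family factors, on either strand. The Tgfb1 run is chr7:25686752-25687001 (+), the Ltbp2 run chr12:84876533-84876741 (-) and the Tgfb2 run chr1:186705990-186706239 (-), from RefSeq promoters on GRCm38.p6.
Tgfb1: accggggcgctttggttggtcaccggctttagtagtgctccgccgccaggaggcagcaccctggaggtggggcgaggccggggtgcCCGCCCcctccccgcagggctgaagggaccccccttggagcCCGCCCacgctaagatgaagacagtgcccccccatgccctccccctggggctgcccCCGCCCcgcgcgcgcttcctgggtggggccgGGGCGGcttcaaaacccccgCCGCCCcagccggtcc
Ltbp2: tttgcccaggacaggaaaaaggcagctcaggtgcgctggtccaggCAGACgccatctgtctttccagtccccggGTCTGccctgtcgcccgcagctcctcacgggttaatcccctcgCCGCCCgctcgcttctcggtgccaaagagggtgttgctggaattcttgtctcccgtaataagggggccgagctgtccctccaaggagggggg
Tgfb2: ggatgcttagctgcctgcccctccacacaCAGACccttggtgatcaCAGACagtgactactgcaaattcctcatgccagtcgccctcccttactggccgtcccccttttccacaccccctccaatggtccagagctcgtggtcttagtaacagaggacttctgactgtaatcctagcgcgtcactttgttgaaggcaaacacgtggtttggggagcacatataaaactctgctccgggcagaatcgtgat

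The Tgfb1 run held 5 GC boxes and 0 SMAD boxes, the Ltbp2 run 1 GC box and 2 SMAD boxes, and the Tgfb2 run 0 GC boxes and 2 SMAD boxes. None of these runs held the AP-1 site TGANTCA. Over the 32851 promoter windows of 250 bases before to 50 bases after a start, 49.6% held a SMAD box, 35.7% a GC box and 7.81% an AP-1 site, so a SMAD box in a window is common. Promoter entries were matched for 8 of the 9 genes. Among them, the window of Ltbp3 held 2 SMAD boxes and 1 AP-1 site, and the windows of Ltbp4 held 3, 7 and 9 GC boxes and 0 SMAD boxes. The E box CANNTG, present in 72.3% of all windows, was found at least once in 1 or more windows of every matched gene except Tgfb1. A match of letters describes the window and is no evidence of binding.

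In control muscle, Tgfb3 was the leading ligand transcript and Tgfb1 the scarcest of the 9 genes. On a per-length scale (TPM, as deposited), mean levels in controls were 12.7 for Tgfb3, 10.8 for Tgfbr2, 10.7 for Tgfbr1, 9.26 for Ltbp4, 5.74 for Tgfb2, 3.26 for Ltbp3, 2.58 for Ltbp1, 0.527 for Ltbp2 and 0.493 for Tgfb1 (n = 3). The values of Tgfbr2 and Tgfbr1, of Ltbp3 and Ltbp1, and of Ltbp2 and Tgfb1 overlapped between mice, and the other neighbours in this order did not. FLExD/+ mice had the same order except that Ltbp1 and Ltbp3, whose values overlapped, changed places. In severe muscle the order became Tgfbr2 (48.5 TPM), Tgfbr1 (33.9), Tgfb3 (24.8), Ltbp1 (23.5), Ltbp4 (9.44), Ltbp3 (7.92), Tgfb1 (7.51), Ltbp2 (6.90) and Tgfb2 (5.42). There the values of Tgfb3 and Ltbp1 overlapped, as did each neighbouring pair from Ltbp4 down to Tgfb2. The moderate group opened with Tgfbr2 (22.2 TPM), Tgfbr1 (15.3), Ltbp4 (13.3) and Ltbp1 (12.3), and Tgfb3 (10.7) came only after them. TPM of the lowest genes are uncertain, since 164142 of the 164417 entries with 0 counts were listed with a TPM above 0.

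**Figure D1:**
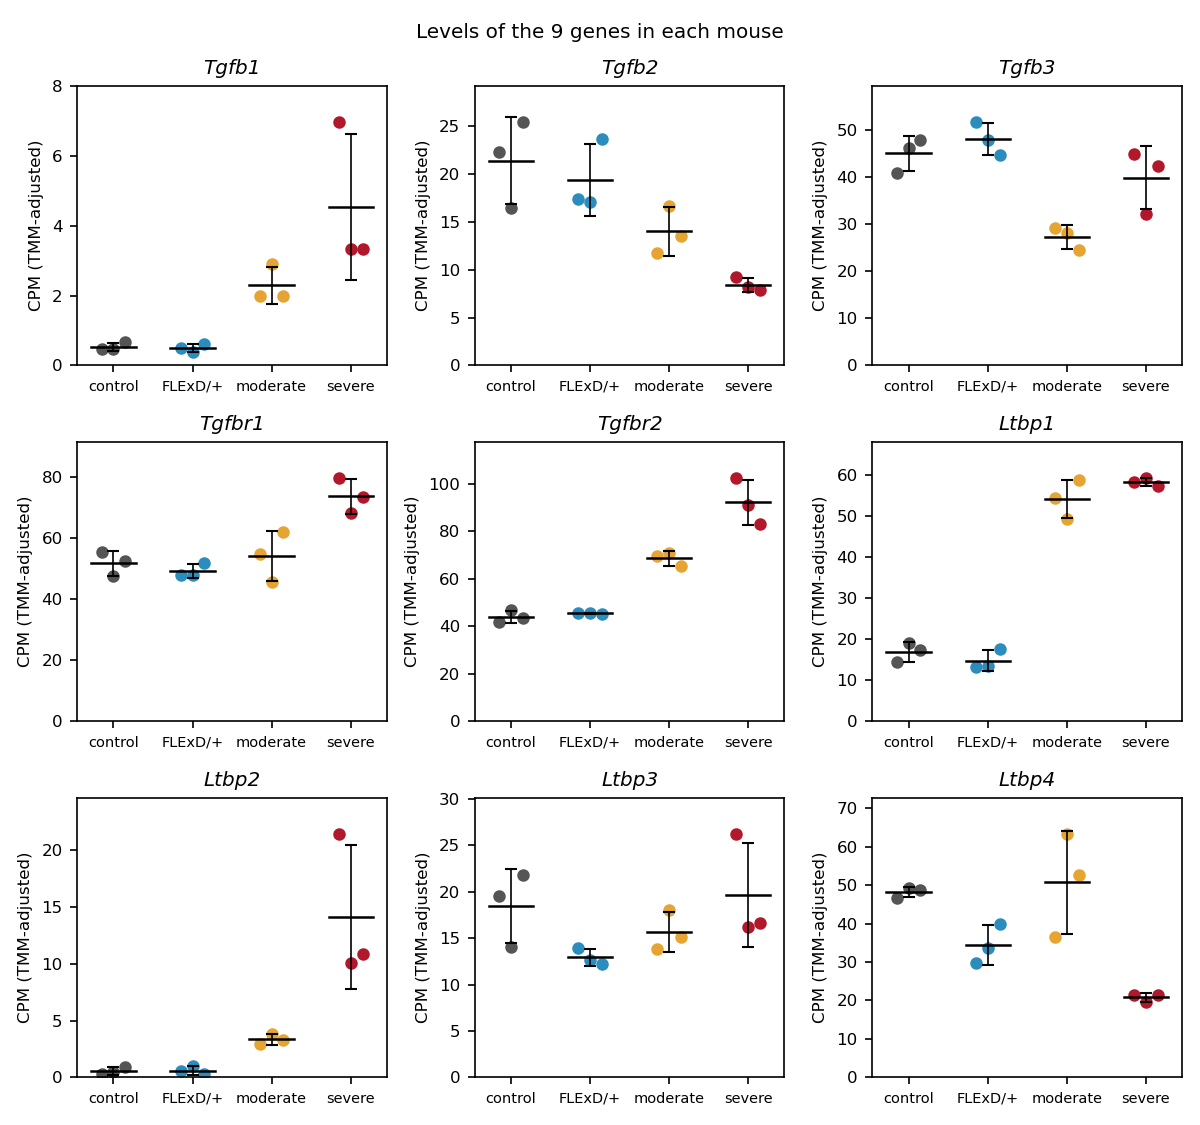
Level of each of the 9 genes in every mouse, in CPM on TMM-adjusted library sizes (vertical axes start at 0), by group. Points are mice, long bars are group means and error bars are SD (n = 3). Tgfb1 and Ltbp2 stand near the floor in control and FLExD/+ mice and higher in moderate and severe mice, and Ltbp4 lies at 19.5 to 21.6 CPM in severe mice against 46.7 to 49.3 in controls.

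Moderate muscle differed from control muscle in 6 of the 9 genes. Tgfb1, Tgfbr2, Ltbp1 and Ltbp2 rose and Tgfb2 and Tgfb3 fell relative to the typical gene. Over all 16679 genes, 24.4% were called higher and 17.0% lower in this comparison. In severe muscle, 5 genes rose (Tgfb1, Tgfbr1, Tgfbr2, Ltbp1 and Ltbp2) and 2 fell (Tgfb2 and Ltbp4), beside 32.9% of all genes called higher and 27.9% called lower. Between severe and moderate muscle, Tgfb1, Tgfb3 and Ltbp2 were higher and Tgfb2 and Ltbp4 lower, with 17.6% and 18.8% of all genes called. Values of the groups did not overlap for 5 of the 9 genes between moderate and control mice, for 7 between severe and control mice and for 7 between the models, where 61.0%, 75.0% and 61.3% of all genes did not overlap. Counts of this size without overlap thus lie near those of the whole transcriptome. The median log2 fold change of the 9 was 0.07, 0.51 and 0.43 in these 3 comparisons. The moderate and severe comparisons share the same 3 control mice, and the numbers of mice allow no exact permutation p under 0.10.

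**Figure D2:**
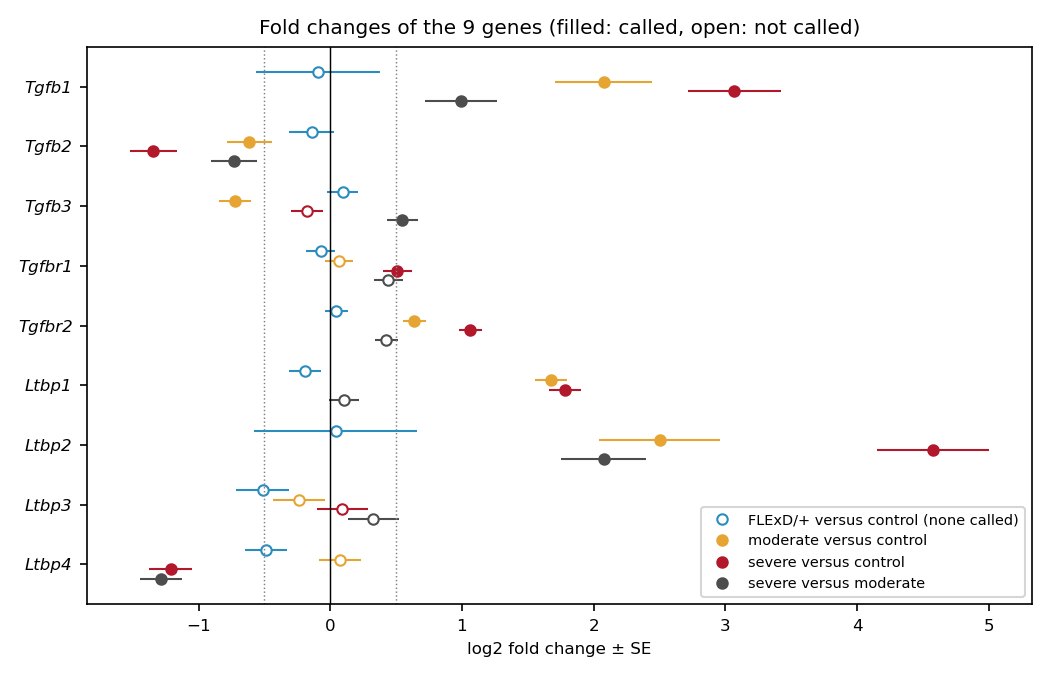
Log2 fold change of each of the 9 genes (horizontal axis, points, bars are SE) in the 4 comparisons with TMM factors. Filled points were called, open points were not, and dotted lines mark 0.5 and -0.5. Ltbp2 reaches 4.58 and Tgfb1 3.07 in severe versus control, whereas Tgfb2 lies at -1.34 and Ltbp4 at -1.21; on library size alone the latter 2 genes lie at -0.04 and 0.09.

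Among the ligands, Tgfb1 (ENSMUSG00000002603; GRCm38 chr7:25687002-25705077, plus strand), the isoform most tied to immune control and fibrosis, rose in both models. Its level was 0.466, 0.482 and 0.664 CPM in control mice, 0.492, 0.397 and 0.627 in FLExD/+ mice, 1.99, 2.90 and 1.99 in moderate mice and 6.97, 3.35 and 3.33 in severe mice. All moderate mice lay above all controls, and all severe mice above all moderate mice, with severe mouse 1047 well above the other severe mice. The rise was 4.22-fold in moderate muscle (log2 fold change 2.08, SE 0.37, adjusted p = 0.00029) and 8.39-fold in severe muscle (3.07, SE 0.35, adjusted p = 2.3e-06). The control values rest on 9 to 14 counts per mouse, against 61 to 84 in moderate and 138 to 309 in severe mice. The severe group was 1.99-fold above the moderate group (log2 fold change 0.99, SE 0.28, adjusted p = 0.0085). That call depended on mouse 1047: without it, the difference was 0.55 with an adjusted p of 0.063. Mouse 1047 also had the lowest summed muscle fibre level (9410 CPM, against 16672 and 16226 in the other severe mice) and the highest macrophage, fibroblast and tendon marker sums of the severe group. The part of these in the Tgfb1 value was not tested.

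Tgfb2 (ENSMUSG00000039239; chr1:186622792-186705989, minus strand), a ligand that needs the co-receptor betaglycan for tight receptor binding, went the other way. Its level was 22.3, 16.5 and 25.4 CPM in controls, 17.4, 17.1 and 23.7 in FLExD/+ mice, 11.7, 16.7 and 13.5 in moderate mice and 9.24, 8.18 and 7.83 in severe mice. Every severe mouse lay below every mouse of the other groups, whereas 1 moderate mouse lay just above the lowest control. Relative to the typical gene, Tgfb2 fell by 0.61 on the log2 scale in moderate muscle (SE 0.17, adjusted p = 0.0091) and by 1.34 in severe muscle (SE 0.18, adjusted p = 1.2e-05). It also fell by 0.73 from moderate to severe (SE 0.18, adjusted p = 0.0037). With library size as the only scaling, the log2 fold changes of Tgfb2 were -0.01, -0.04 and -0.03 in these comparisons and none was called. Its share of library reads thus barely moved while the median gene gained. The moderate call was also lost without moderate mouse 1236, at a log2 fold change just short of the threshold (-0.50, adjusted p = 0.044).

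Tgfb3 (ENSMUSG00000021253; chr12:86056745-86079041, minus strand), the remaining isoform, was lowest in the moderate group. It stood at 40.8, 46.2 and 47.9 CPM in controls, 51.6, 47.8 and 44.7 in FLExD/+ mice, 29.2, 28 and 24.4 in moderate mice and 45.0, 32.2 and 42.3 in severe mice. All moderate values lay below those of every other group, and severe values overlapped the controls. Tgfb3 fell by 0.72 (log2) in moderate muscle (SE 0.12, adjusted p = 0.00017), and its difference in severe muscle was -0.18 (SE 0.12, adjusted p = 0.20). The test between the models gave a level 1.46-fold higher in severe than in moderate mice (log2 fold change 0.55, SE 0.12, adjusted p = 0.0017). This is close to the fold threshold, and it dropped to 0.45 without severe mouse 1047 and 0.49 without moderate mouse 1331. Scaled by library size alone, Tgfb3 was 1.13 higher (log2) in severe than in control muscle and was called higher, and its moderate difference shrank to -0.12.

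The makeup of the ligand pool, which does not depend on the scaling between libraries, shifted towards Tgfb1. Tgfb1 made up 2.59% ± 0.325 (SD, n = 3) of the summed TPM of the 3 ligands in controls, 2.57% ± 0.647 in FLExD/+ mice, 13.1% ± 1.94 in moderate mice and 19.4% ± 4.28 in severe mice. Tgfb2 supplied 30.1% ± 4.71 in controls, 27.8% ± 3.88 in moderate mice and 14.6% ± 3.00 in severe mice. Tgfb3 had the largest share of TPM in every group, at 67.3% ± 4.82, 70.4% ± 4.33, 59.1% ± 5.55 and 66.0% ± 4.06 in control, FLExD/+, moderate and severe mice. In expected counts in place of TPM, the Tgfb1 share was 0.798% in controls and 8.43% in severe mice, and the Tgfb3 share was higher in severe mice (75.4%) than in controls (67.4%), which turns the direction of its TPM share. The Tgfb1 share of TPM did not overlap between controls and either model, nor between the models, and the Tgfb2 share of severe mice lay below those of both other groups compared. Each of these comparisons gave an exact two-sided permutation p of 0.10, the smallest that 3 mice against 3 allow, and 0.188 after Benjamini-Hochberg adjustment over 32 comparisons of shares and ratios.

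**Figure D3:**
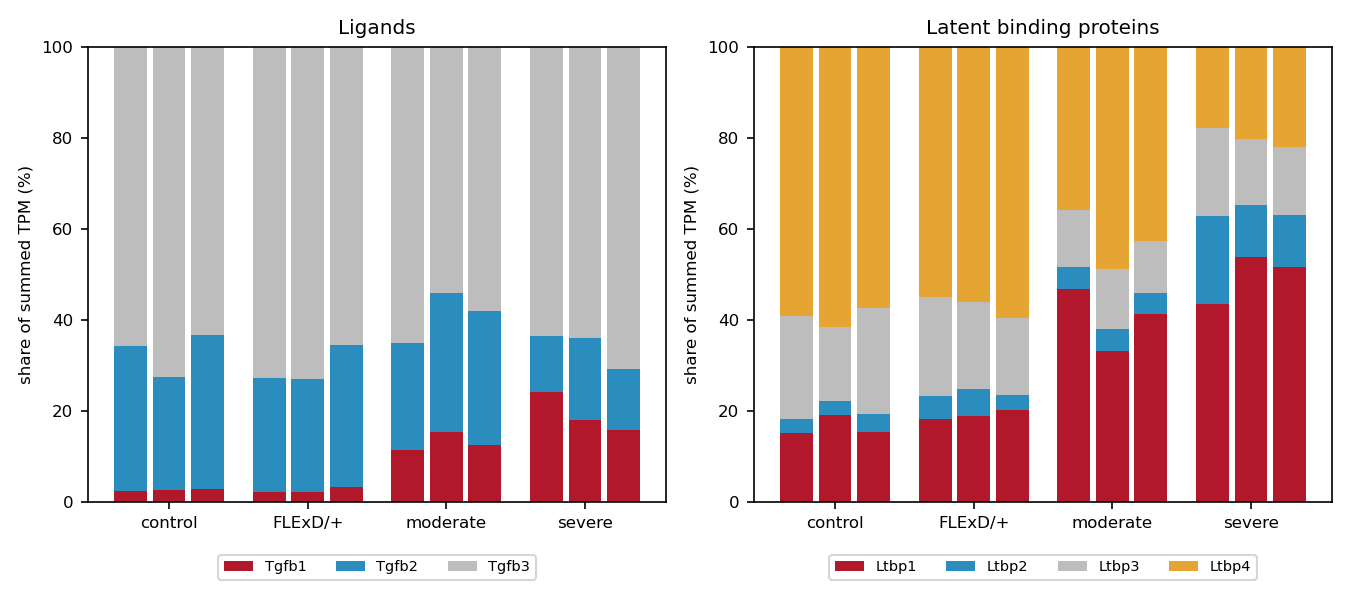
Share of each gene (percent, vertical axis from 0 to 100) in the summed TPM of the 3 ligands (left) and of the 4 latent binding proteins (right), 1 bar per mouse, 3 mice per group. Tgfb1 grows from a mean of 2.59% of the ligand total in controls to 19.4% in severe mice, and Ltbp4 shrinks from 59.4% to 20.0% of the latent binding protein total.

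Both receptors were called higher in severe muscle and Tgfbr2 also in moderate muscle. Tgfbr2 (ENSMUSG00000032440; chr9:116084293-116175360, minus strand), the ligand-binding kinase, was at 41.9, 46.9 and 43.4 CPM in controls, 45.6, 45.8 and 45.1 in FLExD/+ mice, 69.5, 71 and 65.2 in moderate mice and 102, 90.9 and 83.2 in severe mice. The values of controls, moderate mice and severe mice did not overlap. Tgfbr2 rose 1.56-fold in moderate muscle (log2 fold change 0.64, SE 0.09, adjusted p = 2.7e-05) and 2.09-fold in severe muscle (1.06, SE 0.09, adjusted p = 6.7e-08). The step from moderate to severe was 0.43 (SE 0.09, adjusted p = 0.00093), under the fold threshold.

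Tgfbr1 (ENSMUSG00000007613; chr4:47353222-47414931, plus strand), the signalling kinase, was at 55.6, 47.6 and 52.4 CPM in controls, 48.1, 48.0 and 52.0 in FLExD/+ mice, 55.0, 45.7 and 62.2 in moderate mice and 79.6, 68.3 and 73.5 in severe mice. Moderate values straddled the controls, and all severe values lay above every other mouse. The severe difference was 1.42-fold (log2 fold change 0.51, SE 0.11, adjusted p = 0.00072), and the moderate difference was 0.07 (SE 0.11, adjusted p = 0.64). The severe call sits on the fold threshold and was lost in 6 of 13 alternative fits, always with an adjusted p under 0.05. Among these, the log2 fold change was 0.48 with median-of-ratios factors and with DESeq2. It was 0.43 to 0.50 without control mouse 1246, control mouse 1349 or severe mouse 1047.

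The ratio of Tgfbr2 to Tgfbr1 in TPM was 1.01 ± 0.102 (SD, n = 3) in controls, 1.13 ± 0.169 in FLExD/+ mice, 1.47 ± 0.303 in moderate mice and 1.42 ± 0.148 in severe mice. All mice of either model lay above all controls (exact two-sided permutation p = 0.10 for each, the smallest possible, adjusted p = 0.188), whereas the models overlapped each other (exact permutation p = 0.90).

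The latent binding proteins did not move as a group. Ltbp1 (ENSMUSG00000001870; chr17:75005568-75392512, plus strand), which anchors latent complexes of all the ligands, rose to a like level in both models. It was at 14.4, 19.0 and 17.3 CPM in controls, 13.3, 13.4 and 17.7 in FLExD/+ mice, 54.4, 49.4 and 58.9 in moderate mice and 58.5, 59.2 and 57.3 in severe mice. Model mice lay far above all others, and the models overlapped. Ltbp1 rose 3.20-fold in moderate muscle (log2 fold change 1.68, SE 0.12, adjusted p = 8.3e-08) and 3.44-fold in severe muscle (1.78, SE 0.12, adjusted p = 1.1e-08), and the difference between the models was 0.11 (SE 0.11, adjusted p = 0.47). This gene kept its call against controls under every alternative tried.

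Ltbp2 (ENSMUSG00000002020; chr12:84783212-84876532, minus strand), a matrix protein of elastic fibres that, unlike its relatives, does not bind latent TGF-beta, had the largest fold change of the set in the count-based fits. It was at 0.311, 0.482 and 0.948 CPM in controls, 0.541, 0.991 and 0.289 in FLExD/+ mice, 2.93, 3.86 and 3.26 in moderate mice and 21.4, 10.1 and 10.8 in severe mice. Groups did not overlap between controls and either model or between the models, and severe mouse 1047 again had the highest value. Ltbp2 rose 5.67-fold in moderate muscle (log2 fold change 2.50, SE 0.46, adjusted p = 0.00057), 23.9-fold in severe muscle (4.58, SE 0.42, adjusted p = 7.4e-07) and 4.22-fold from moderate to severe (2.08, SE 0.32, adjusted p = 0.00020). Controls had only 6 to 19.5 counts, so the size of the fold is loosely held. On log2(TPM + 1), which damps low values, the log2 fold changes were 0.69 and 2.30 and were still called, but Ltbp1 then led the set at 1.90 and 2.78. The antisense gene D030025P21Rik shares 764 exonic bases with Ltbp2, and whether the counting used strand is not given in the sources used here. It was counted at 0.0862 CPM in severe mice.

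Ltbp3 (ENSMUSG00000024940; chr19:5740904-5758532, plus strand), a partner of latent TGF-beta known from bone and the vessel wall, passed no test. It was at 19.5, 14.0 and 21.8 CPM in controls, 14.0, 12.6 and 12.2 in FLExD/+ mice, 13.9, 18.0 and 15.1 in moderate mice and 26.2, 16.2 and 16.6 in severe mice. The highest value was again that of mouse 1047. The log2 differences from control were -0.24 (SE 0.20, adjusted p = 0.34) in moderate and 0.09 (SE 0.19, adjusted p = 0.69) in severe muscle. On library size alone Ltbp3 was called higher in severe muscle, at 1.41.

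Ltbp4 (ENSMUSG00000040488; chr7:27305136-27337692, minus strand), known in mice as a genetic modifier of muscular dystrophy, fell in severe muscle relative to the typical gene, though not on library size alone. It was at 46.7, 49.3 and 48.7 CPM in controls, 29.8, 33.7 and 40.0 in FLExD/+ mice, 36.6, 63.2 and 52.5 in moderate mice and 21.6, 19.5 and 21.4 in severe mice. Severe values lay below those of every other mouse, and moderate values spread to either side of the controls. Relative to the typical gene, Ltbp4 fell by 1.21 (log2) in severe muscle (SE 0.16, adjusted p = 1.4e-05) and by 1.28 from moderate to severe (SE 0.16, adjusted p = 3.0e-05), and its moderate difference was 0.07 (SE 0.16, adjusted p = 0.73). Scaled by library size alone, the severe difference from control was 0.09 and not called, whereas the difference between the models stayed lower at -0.58.

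Measured within each library, the Ltbp4 share of the summed latent binding protein TPM was 59.4% ± 2.02 (SD, n = 3) in controls and 56.9% ± 2.47 in FLExD/+ mice. It was 42.4% ± 6.48 in moderate and 20.0% ± 2.09 in severe mice. Mean Ltbp4 TPM was 9.26 in controls, 13.3 in moderate and 9.44 in severe mice, against 2.58, 12.3 and 23.5 for Ltbp1. The Ltbp4 share thus shrank while its own mean TPM did not. Ltbp1 went from 16.5% ± 2.22 in controls and 19.1% ± 1.09 in FLExD/+ mice to 40.4% ± 6.85 in moderate and 49.7% ± 5.42 in severe mice. Ltbp2 went from 3.35% ± 0.425 in controls to 4.75% ± 0.0997 in moderate and 14.0% ± 4.48 in severe mice. Ltbp3 made up 20.8% ± 3.88, 12.4% ± 0.843 and 16.3% ± 2.75 in these groups. The shares of Ltbp4, Ltbp1 and Ltbp2 did not overlap between controls and either model, each with an exact two-sided permutation p of 0.10, the smallest possible, and 0.188 after adjustment.

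**Figure D4:**
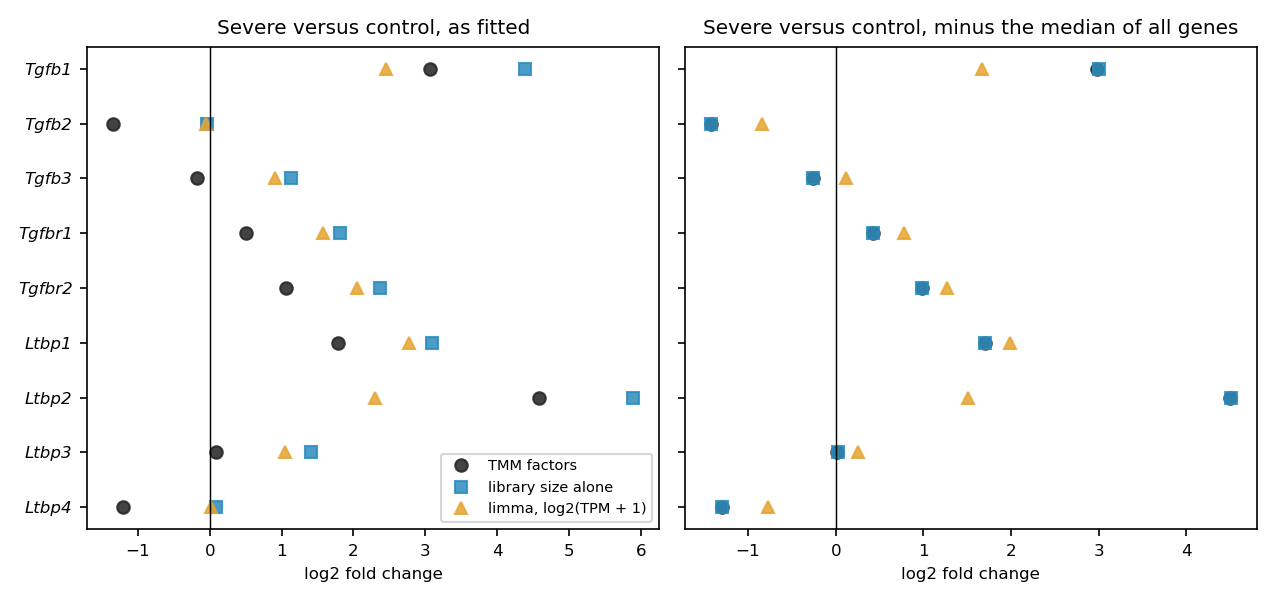
Log2 fold change of each of the 9 genes in severe versus control muscle under 3 scalings, as fitted (left) and after subtracting the median of all genes tested (right). As fitted, Tgfb3, Ltbp4 and Tgfb2 lie at 1.13, 0.09 and -0.04 on library size alone. After subtraction the library-size values lie on the TMM values by construction, with Tgfb2 at -1.42 and Ltbp4 at -1.29.

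A scaling factor shifts all genes of a library alike, so TMM and library size agree by construction once the median is removed. After subtracting the median of all genes, the severe versus control log2 fold change on library size alone was 3.00 for Tgfb1, -1.42 for Tgfb2, -0.25 for Tgfb3, 0.43 for Tgfbr1, 0.99 for Tgfbr2, 1.70 for Ltbp1, 4.51 for Ltbp2, 0.02 for Ltbp3 and -1.29 for Ltbp4. With limma on log2(TPM + 1) the match is not exact, but it is no independent check of Tgfb2 and Ltbp4. As fitted, these 2 genes lay at -0.06 and 0.02, near their library-size values, with the median of all genes at 0.79. After the same subtraction they were at -0.85 and -0.77, values that rest on the median removed. Tgfb3 then had the opposite sign at 0.12. There Tgfb1 was at 1.66, Ltbp2 at 1.5 and Tgfbr1 at 0.78. Without subtraction, 6 of the 9 genes were called higher and 0 lower in moderate muscle on library size alone, and 7 higher and 0 lower in severe muscle. The share of all genes called on that scale is not given here, so these counts cannot be read as particular to the 9 genes. The median of the 9 was then 0.67 and 1.82, beside 0.65 and 1.39 over all genes.

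FLExD/+ mice, which carry DUX4 without Cre, did not differ from controls in any of the 9 genes by edgeR, where 0% of all genes were called higher and 0.006% lower. At an unadjusted p under 0.05, 2 genes passed in edgeR and in DESeq2 (Ltbp3 and Ltbp4) and 1 in limma on log2(TPM + 1) (Ltbp4), and none was called by any of these. All FLExD/+ values of Ltbp3 and Ltbp4 lay below all control values, with log2 differences of -0.51 (SE 0.20) and -0.49 (SE 0.16) and an adjusted p of 1 each. Groups that do not overlap were found for 8.60% of all genes in this comparison. The other 7 genes overlapped, with log2 differences between -0.19 (Ltbp1) and 0.09 (Tgfb3).

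Cell type marker lists changed in different directions between the groups. The shares of all genes called with the TMM factors are those given above. Counts on library size alone have no such share beside them. The 8 macrophage and monocyte markers all rose in both models, and their summed level was 88.5 to 114 CPM in controls, 443 to 557 in moderate mice and 989 to 1082 in severe mice. Of 7 fibroblast and fibro-adipogenic progenitor markers, 4 rose in moderate muscle, and in severe muscle 3 rose and 2 fell (7 rose and 0 fell in either model on library size alone), with summed levels of 287 to 435 CPM in controls, 651 to 676 in moderate mice and 793 to 884 in severe mice. Of 6 endothelial markers, 3 fell in moderate and 6 in severe muscle relative to the typical gene, with sums of 167 to 188, 107 to 141 and 73.2 to 88.2 CPM; on library size alone 1 rose and 1 fell in severe muscle. Muscle fibre markers fell, 7 of 8 in moderate and 8 of 8 in severe muscle, also on library size alone. Pericyte and smooth muscle markers were mixed (1 higher and 1 lower of 5 in moderate, 2 and 2 in severe), as were the 4 tendon markers (1 and 1, then 2 and 2), and in both lists most of the lower calls were absent on library size alone (1 of 5 pericyte and 0 of 4 tendon markers were lower in severe muscle). Of the platelet and megakaryocyte markers, 2 of 3 tested rose in both models, and the other listed marker, Gp9, was too low to be tested. Tendon sums were 70.3 to 147 CPM in controls, 212 to 256 in moderate and 333 to 413 in severe mice, pericyte sums 139 to 175, 143 to 180 and 107 to 135, and platelet sums 3.42 to 5.59, 14.1 to 19.3 and 30.8 to 35.0. At most 1 marker of a list, in the platelet list, was at 0 in a mouse. The part of cell makeup in the levels of the 9 genes was not tested.

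The rest of the pathway was read from a list of 44 genes grouped by role, all of them tested. In moderate muscle 18 rose and 5 fell, in severe muscle 21 rose and 7 fell, and between severe and moderate 14 were higher and 4 lower, beside the shares of all genes given above (24.4% higher and 17.0% lower, 32.9% and 27.9%, and 17.6% and 18.8%). No gene of the list was called between FLExD/+ and control by edgeR, DESeq2 or limma, and at an unadjusted p under 0.05 only Ski passed, in edgeR and DESeq2. The median log2 fold change of the 44 was 0.36 in moderate and 0.60 in severe muscle, beside 0.04 and 0.08 over all genes. On library size alone, 29 rose and 2 fell in moderate muscle and 39 rose and 1 fell in severe muscle. The median log2 fold change of the 44 was then 0.96 and 1.91, beside 0.65 and 1.39 over all genes. The share of all genes called on that scale is not given here, so these counts have no background beside them.

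**Figure D5:**
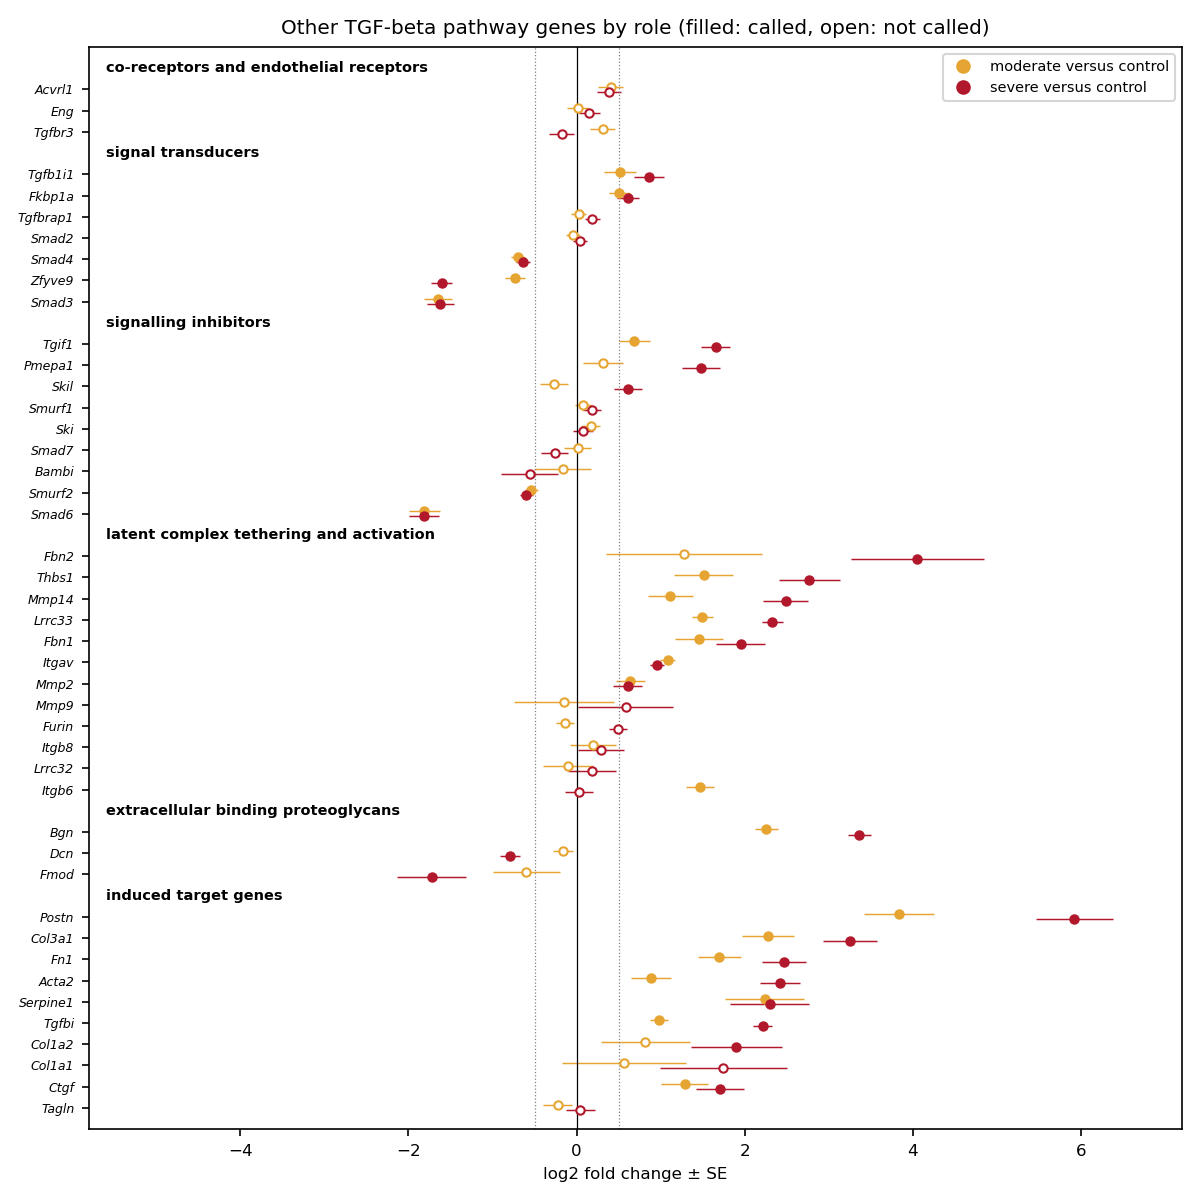
Log2 fold change (horizontal axis, points, bars are SE) of 44 other TGF-beta pathway genes in moderate and severe versus control muscle with TMM factors, grouped by role. Filled points were called, open points were not, and dotted lines mark 0.5 and -0.5. Postn reaches 5.92 in severe muscle, whereas Smad6, Smad3 and Zfyve9 lie at -1.82, -1.62 and -1.61; these 3 stay below 0 on library size alone, whereas Smurf2 and Dcn do not.

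Of the genes that TGF-beta is known to induce, 7 of 10 rose in moderate and 8 of 10 in severe muscle, where 24.4% and 32.9% of all genes were called higher, and 0 fell. Postn, the matrix protein periostin, went from 13.1 CPM ± 7.64 (SD, n = 3) in controls to 187 ± 43.4 in moderate and 793 ± 172 in severe mice (severe log2 fold change 5.92, SE 0.46, adjusted p = 5.8e-07). Col3a1, which encodes the type III collagen chain, went from 328 ± 198 to 1594 ± 112 and 3128 ± 270 CPM (severe log2 fold change 3.25, SE 0.32, adjusted p = 1.1e-06). The fibroblast and macrophage marker sums given above were also higher in both models. Single fibroblast markers were mixed, with 3 of 7 rising and 2 falling in severe muscle, and 1 higher and 2 lower between severe and moderate. The part of these cell types in the result was not tested.

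Among genes that tether or activate the latent complex, 7 of 12 rose and 0 fell in each model. Over all genes, 24.4% were called higher and 17.0% lower in moderate muscle, and 32.9% and 27.9% in severe muscle. Thbs1, which encodes thrombospondin 1, an activator of latent TGF-beta, went from 25.3 CPM ± 8.29 in controls to 72.1 ± 14.4 in moderate and 172 ± 48.6 in severe mice (severe log2 fold change 2.77, SE 0.36, adjusted p = 5.1e-05). Fbn2, a fibrillin of the microfibrils to which latent binding proteins attach, was at 0.0482 to 1.28 CPM in controls and 4.32 to 14.0 in severe mice (log2 fold change 4.05, SE 0.80, adjusted p = 0.00096), and its moderate difference was 1.28 (SE 0.93, adjusted p = 0.27).

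Genes listed as transducers of the signal were split. Smad3 fell from 75.0 CPM ± 17.1 in controls to 23.9 ± 1.43 in moderate and 24.4 ± 4.55 in severe mice (log2 fold changes -1.65 and -1.62, SE 0.16 each, adjusted p = 2.0e-06 and 8.5e-07), and Zfyve9, the SMAD anchor SARA, was at 108 ± 7.56, 65.2 ± 6.20 and 35.5 ± 4.5 CPM (severe log2 fold change -1.61, SE 0.12, adjusted p = 3.3e-08). On library size alone the severe log2 fold change of each was -0.31. Fkbp1a and Tgfb1i1, a focal adhesion co-regulator also called Hic-5, rose in severe muscle by 0.61 (SE 0.13, adjusted p = 0.00058) and 0.86 (SE 0.18, adjusted p = 0.00071) on the log2 scale. The product of Fkbp1a binds and restrains the type I receptor, so its rise is not one of a transducer in the strict sense. In all, 2 of the 7 genes listed as transducers rose and 3 fell in each model. Over all genes, 24.4% were called higher and 17.0% lower in moderate muscle, and 32.9% and 27.9% in severe muscle. On library size alone, 5 of these genes rose and 0 fell in severe muscle, with no share of all genes called beside this count. Both moderate rises (Fkbp1a at 0.51 and Tgfb1i1 at 0.52) sat on the fold threshold, and 0 transducers rose there with DESeq2 or with median-of-ratios factors.

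Of 9 inhibitors of the signal, 1 rose and 2 fell in moderate muscle. In severe muscle 3 rose and 2 fell (7 and 1 on library size alone). Over all genes, 24.4% were called higher and 17.0% lower in moderate muscle, and 32.9% and 27.9% in severe muscle. The severe counts with the TMM factors thus lie near the shares of all genes, and those on library size alone have no such share beside them. Tgif1, a SMAD co-repressor, rose in severe muscle by 1.66 (log2; SE 0.17, adjusted p = 8.7e-07) and Pmepa1, a SMAD-binding membrane protein, by 1.48 (SE 0.23, adjusted p = 5.7e-05). Smad6, an inhibitory SMAD, was at 6.24 CPM ± 1.05 in controls and 1.77 ± 0.319 in severe mice (log2 fold change -1.82, SE 0.18, adjusted p = 4.2e-07). Smurf2, a ubiquitin ligase that targets the receptors, fell by 0.60 relative to the typical gene (SE 0.08, adjusted p = 7.4e-06) but lay 0.71 higher on library size alone.

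The proteoglycans that bind TGF-beta in the matrix parted company in severe muscle. Bgn (biglycan) rose from 25.7 CPM ± 4.55 in controls to 123 ± 4.48 in moderate and 265 ± 40.9 in severe mice (severe log2 fold change 3.36, SE 0.14, adjusted p = 1.5e-10). Dcn (decorin) fell from 325 ± 16.7 to 188 ± 30.1 CPM (-0.79, SE 0.12, adjusted p = 2.9e-05), although on library size alone it lay 0.51 higher, and Fmod (fibromodulin) fell from 39.8 ± 16.5 to 12.1 ± 1.98 CPM (-1.72, SE 0.41, adjusted p = 0.0039). None of the 3 co-receptor and endothelial receptor genes (Tgfbr3, Eng and Acvrl1) was called by edgeR in any comparison. At an unadjusted p under 0.05, 1 of them passed in each of the 3 comparisons that involve a model in edgeR and in DESeq2. With limma on log2(TPM + 1), 1 of them was called in moderate mice and 3 in severe mice against controls, and 2 between the models. The share of all genes called by limma is not given here. The median of all genes was itself 0.29, 0.79 and 0.49 higher (log2) in these limma comparisons.

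The genes whose pattern over the 12 mice lay closest to that of each member were found among 12318 candidates with a mean of at least 50 counts, by the root-mean-square difference of log2 CPM centred on the control mean. Tgfb1 had Plxnb2 (0.24) and Ckap4 (0.26), Tgfb2 had Dab2ip (0.14) and Map2k2 (0.16), and Tgfb3 had Pld2 (0.14) and S100a16 (0.15). Tgfbr1 had Mef2a (0.08) and Hnrpll (0.09), and Tgfbr2 had Arpc2 (0.08) and Dtx3l (0.09). Ltbp1 had Dnahc7b (0.16) and Golim4 (0.16), Ltbp2 had Cit (0.35) and Zdbf2 (0.37), Ltbp3 had Mnt (0.12) and Mll1 (0.14), and Ltbp4 had Wipf3 (0.25) and Kcnma1 (0.26). The distances were smallest for the receptors and largest for Ltbp2. No gene among these 18 was in the pathway list. That list holds only 44 genes, beside 12318 candidates, so this absence says little.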

How the data were processed

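RNA from gastrocnemius muscle was sequenced as single reads of 50 bases. The authors ran RSEM 1.2.4 with Bowtie on a merged mm10 annotation that included Ensembl 71, mapped leftover reads with TopHat2 2.0.8b, and deposited expected counts per gene. The authors also deposited TPM values per gene. Whether strand was used is not given in the sources used here. Expected counts were rounded, genes were filtered with filterByExpr, and all 12 mice were fitted together in edgeR 4.0.16 (quasi-likelihood, TMM factors, no covariate) in R 4.3.3. Adjusted p values are Benjamini-Hochberg over the 16679 genes tested. Shares of TPM were compared by exact two-sided permutation. Alternatives used DESeq2 1.42.0, limma 3.58.1 on log2(TPM + 1), other scalings and filters, and fits without each mouse. The fits were tested on data simulated from control and FLExD/+ mice, without a built-in shift in library composition like that of the models. That test thus does not bear on the choice of scaling. The 9 genes and all lists were chosen with earlier results of these data known. Outside them, the text names, per role list, up to 2 genes with the largest rise and 2 with the largest fall called in severe muscle, and the 2 nearest genes per member. Positions are from GENCODE M21 (GRCm38). All mice carry separate identity numbers in the labels. No interval of counting error is given for single values, and the number of mice limits precision. A neighbouring gene is not reported here.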

Additional observations from a re-analysis of the deposited data

Results flagged for a closer look

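Severe and moderate muscle differed from each other in 5 of the 9 genes by the direct test between the models (edgeR, adjusted p under 0.05, 3 mice each), where 17.6% of all genes were called higher and 18.8% lower. The log2 fold change from moderate to severe was 0.99 for Tgfb1, -0.73 for Tgfb2, 0.55 for Tgfb3, 2.08 for Ltbp2 and -1.28 for Ltbp4. The Tgfb1 and Tgfb3 differences were not called without severe mouse 1047, and the Tgfb2 difference was -0.03 on library size alone.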

How the results depend on the processing

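Scaling had the widest reach. On library size alone, 0 of the 9 genes were called lower in moderate or severe versus control, and 7 were higher and 1 lower in severe versus moderate. The other pathway genes then gave 29 higher and 2 lower calls (moderate), 39 and 1 (severe) and 35 and 1 (severe versus moderate). With limma on log2(TPM + 1), 0 of the 9 were lower in each of these comparisons and 7 were higher between the models, and the other pathway genes gave 2 lower calls in moderate muscle, 38 higher and 0 lower in severe muscle, and 33 higher and 1 lower between the models. Against controls in severe muscle, Tgfb3 changed sign to 1.13 on library size alone and 0.91 with limma, and Ltbp4 to 0.093 on library size alone and 0.024 with limma. Between the models, Tgfb2 changed sign to 0.10 with limma. The median of all genes moved with these scalings, as the report gives for library size. With limma on log2(TPM + 1) it was 0.29 in moderate muscle, 0.79 in severe muscle and 0.49 between the models. Shares of all genes called under these scalings are not given here, so the counts have no background beside them. Requiring at least 10 counts in every sample removed Tgfb1 and Ltbp2 and left 2 higher calls in moderate and 3 in severe muscle, because fewer genes were tested. Without a fold threshold, 5 genes were higher in severe than in moderate muscle. Leaving out 1 mouse at a time, the 9 genes gave 1 to 2 lower calls in moderate muscle (1 without moderate mouse 1236) and 1 to 3 higher calls between the models (1 without severe mouse 1047). Over all comparisons of the 9 genes, 214 values under other settings stayed on their side of the threshold, 11 lost their call, 13 gained one and 5 changed sign as above. Without 1 mouse, 208 stayed, 7 lost their call and 1 gained one. Values that stayed include uncalled ones that changed sign, such as Ltbp3 in severe muscle at -0.17 without mouse 1047. Shares of counts in place of TPM moved 5 share differences, with Tgfb1 4.43 points above control in moderate and 7.63 in severe muscle, Tgfb3 8.03 points above control and 12.7 above moderate in severe muscle, and Ltbp2 2.03 points above control in moderate muscle. No paired analysis was possible because the labels name separate mice by identity numbers and state no pairing between groups. Low counts of Tgfb1 and Ltbp2 in controls limit the precision of their folds, and 3 mice per group limit every test.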
